A study of Oryzias latipes and Danio rerio with 6 samples.

Results

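The long arm of zebrafish chromosome 4 was taken here as all regions of the 4 zebrafish lists that start at or after position 25000000 of chromosome 4 in the build GRCz10 (danRer10). This held 1655 regions, of 35724 in the 4 zebrafish lists and 52712 in all 8 lists of the series. They comprised 470 of 7553 Yap1 positive regions and 332 of 8538 Yap1 control regions. They further comprised 578 of 8608 Taz positive regions and 275 of 11025 Taz control regions. The rule used position only, so density, length, score, clustering and sharing did not enter it. It was, however, set with earlier results of these data known. The remainder of chromosome 4, with 559 regions in the 4 lists, served as the comparison.

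The regions came from iDamID-seq, in which the bacterial enzyme Dam is fused to a protein and adds a methyl mark to adenine in GATC sites near the places that protein reaches. Wild-type embryos were injected with mRNA for Dam-Yap1, Dam-Taz or Dam-GFP, the last a fusion to a protein with no chromatin function of its own that reports where Dam can reach DNA. DNA was taken from whole embryos at 80% epiboly, a stage late in gastrulation, so every value is a mixture over all cell types of the embryo. Per the labels' protocols, each replicate used 40 embryos and each sample 3 replicates, but 1 list per factor and direction was used here, without values per replicate. All groups shared the wild-type background and the injection of Dam mRNA. Both control lists were deposited under the same Dam-GFP sample and are called the Yap1 control and the Taz control list after the factor each was paired with. With 1 sample per group no spread between replicates could be computed and no test over samples was possible. Differences below are therefore values without a p-value, and every interval is a 95% interval that covers counting of regions only. Read depth was unknown.

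Yap1 and Taz are transcriptional co-activators held in check by the Hippo kinase pathway. They do not bind DNA themselves and act through partners, mainly TEAD proteins. The long arm of zebrafish chromosome 4 is known as a late-replicating, heterochromatic arm that is rich in repeated sequence, small nuclear RNA genes and large families of zinc-finger and NLR immune-type genes. In such an arm many stretches have near-identical copies, and reads from copies are hard to place. The sources used here do not say how reads matching several places were treated, and the part of such reads in the results below was not tested.

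Both positive lists were denser than their control list on the arm. The Yap1 positive list had 9.10 regions per Mb there, against 6.43 per Mb in the Yap1 control list. The Taz positive list had 11.2 regions per Mb, against 5.33 per Mb in the Taz control list. The arm was taken to end with the last listed region, at 76625712, which gives 51.6 Mb. It held 6.22% of the Yap1 positive regions (5.70 to 6.79), against 3.89% of the Yap1 control regions (3.50 to 4.32). It held 6.71% of the Taz positive regions (6.21 to 7.26), against 2.49% of the Taz control regions (2.22 to 2.80). In bases covered, the positive lists were nearly alike, at 706 kb for Yap1 and 708 kb for Taz. The control lists covered 493 kb for Yap1 and 338 kb for Taz.

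Set against the rest of chromosome 4, the odds ratio of positive over control lay above 1 for Taz and below 1 for Yap1. The Taz positive list had 5.16 long-arm regions for each region elsewhere on chromosome 4, against 1.40 in the Taz control list, an odds ratio of 3.70 (2.81 to 4.86). The Yap1 positive list had 2.80, against 4.05 in the Yap1 control list, an odds ratio of 0.691 (0.512 to 0.932). With regions merged within 10 kb the Yap1 value was 0.801 (0.575 to 1.12), an interval that includes 1, and the Taz value 3.33 (2.44 to 4.53). The low Yap1 value went with a high ratio of positive to control regions on the rest of the chromosome. There 168 Yap1 positive regions stood against 82 Yap1 control regions, a ratio of 2.05. On the long arm the same ratio was 1.42. Both Yap1 lists were sparser on the rest than on the arm. The positive list had 6.72 regions per Mb on the rest, against 9.10 on the arm, and the control list 3.28 against 6.43. Against all other assembled chromosomes, a reference added after the values had been seen, the odds ratio was above 1 for both factors, at 1.68 (1.45 to 1.94) for Yap1 and 2.92 (2.53 to 3.39) for Taz. The direction for Yap1 relative to the control list thus depended on the reference, and the value below 1 did not stand apart from 1 once close regions were merged.

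The control lists also differed from each other. Both were deposited under the Dam-GFP sample, but each was paired with a different factor and may depend on that factor's sample too. The Yap1 control list had 332 regions on the arm and 82 on the rest of the chromosome, and the Taz control list had 275 and 197. The odds ratio between them was 2.90 (2.14 to 3.93). The odds ratios of the factors therefore carry a difference between 2 control lists, and the source of that difference was not tested.

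**Figure D1:**
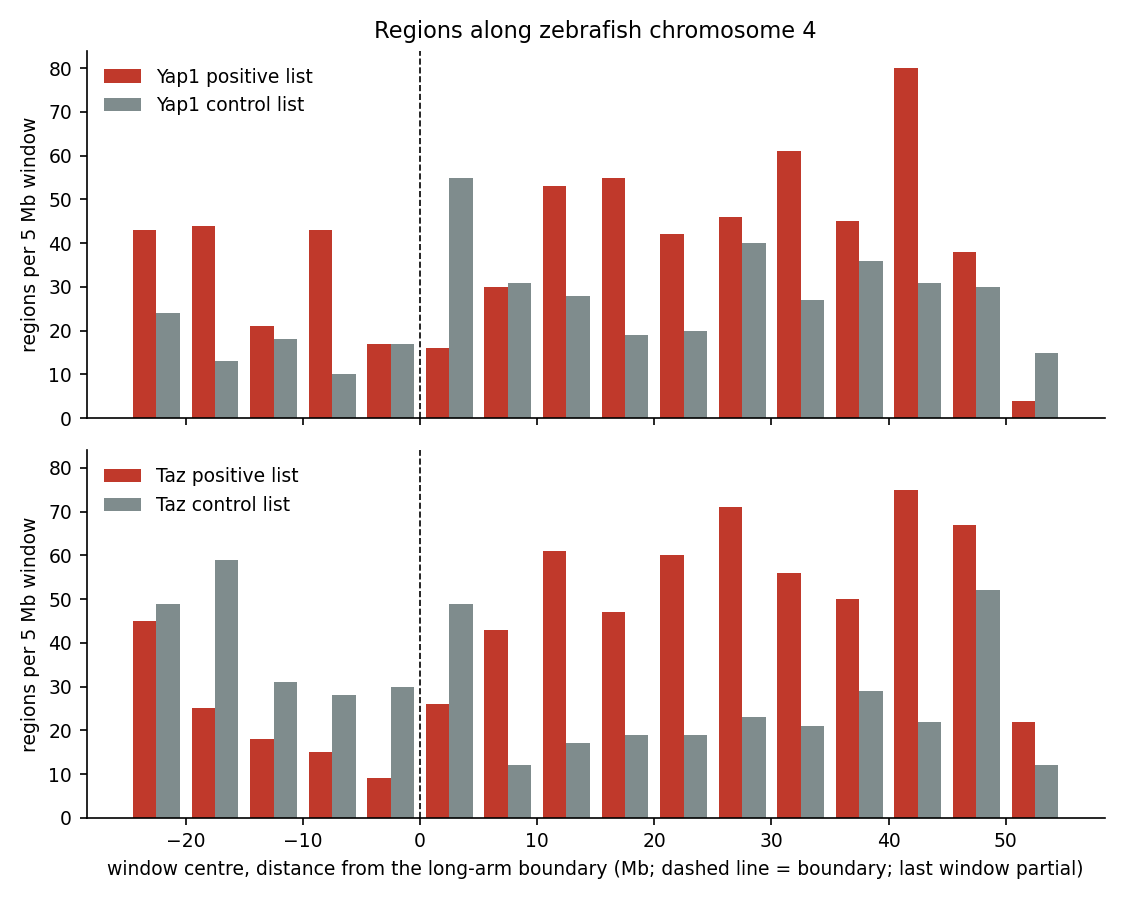
Regions per 5 Mb window along chromosome 4, by distance of the window centre from the start of the long arm (dashed line), for the positive list (red) and the control list (grey) of each factor; the last window ends with the chromosome. The Taz positive bars stand below the control bars in all 5 windows before the boundary and in the first window after it, and above them in all later windows.

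Density along the arm was not even. For Taz the change from a denser control list to a denser positive list lay after the first 5 Mb of the arm. For Yap1 there was no such change, as the ratio of positive to control regions was 1 to 4.3 in the windows before the boundary. In the first 5 Mb of the arm the control lists were the denser: 16 Yap1 positive regions stood against 55 Yap1 control regions, and 26 Taz positive against 49 Taz control regions. The window from 26 to 27 Mb alone held 1 Yap1 positive region against 30 Yap1 control regions, and 5 Taz positive regions against 13 Taz control regions. From 30 Mb on, 454 Yap1 positive regions stood against 277 control regions, a ratio of 1.64, where the ratio before the boundary was 2.05. Within that stretch the Yap1 ratio was 0.968 from 30 to 35 Mb and 0.267 after 75 Mb. For Taz, 552 positive regions stood against 226 control regions from 30 Mb on, a ratio of 2.44. With the boundary moved to 30 Mb the Yap1 odds ratio against the rest of the chromosome reversed to 1.22 (0.934 to 1.59), an interval that includes 1. The Taz odds ratio was 4.35 (3.36 to 5.64) with that boundary. The first regions inside the boundary started at 25044672 (Yap1 positive, score 115) and 25079502 (Taz positive, score 71). The last ones before it started at 24390766 (Yap1 positive, score 80) and 24901666 (Taz positive, score 152).

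Between 30 and 70 Mb the Taz positive list was dense and the Taz control list sparse, each set against its own median over the 282 windows of the assembled chromosomes. There the 5 Mb windows held 43 to 75 Taz positive regions, where the median window held 20.5. The same windows held 12 to 29 Taz control regions, where the median window held 39. On both sides of that stretch the Taz control list lay above its median, with 49 regions from 25 to 30 Mb and 52 from 70 to 75 Mb. For Yap1, 9 of the 10 complete windows of the arm had more positive regions than the median window of 24, and the window from 65 to 70 Mb, with 80, had more than any other of the 282. The Yap1 control list had 19 to 55 regions in the complete windows, around its median of 27. In the last stretch, from 75 Mb to the last region, 22 Taz positive regions and 4 Yap1 positive regions were listed, beside 15 Yap1 control and 12 Taz control regions.

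The Yap1 and Taz positive lists had many of their long-arm regions in common. A region was called shared when it overlapped a region of the same kind of list of the other factor by at least 1 bp. On the long arm 248 of 470 Yap1 positive regions (52.8%, Wilson interval 48.2 to 57.2) overlapped a Taz positive region, against 43 of 168 (25.6%, 19.6 to 32.7) on the rest of chromosome 4. The background over the whole Yap1 positive list was 28.6%. From the Taz side, 264 of 578 regions (45.7%, 41.7 to 49.8) overlapped a Yap1 positive region, against 44 of 112 (39.3%, 30.7 to 48.5) on the rest of the chromosome and 25.3% over the whole list. The intervals of arm and rest did not meet for Yap1 and overlapped for Taz. Both sides count the same overlaps, divided by the number of regions of each list. The Taz positive list had 4.48 regions per Mb on the rest, against 11.2 on the arm, and the Yap1 positive list 6.72 against 9.10. A difference between the sides is therefore not read as one between the factors, and the part of density was not tested. Both comparisons used the same Dam-GFP sample, so these overlaps are not independent of that control.

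Counted from the Yap1 side, the control lists had the opposite pattern. Of the Yap1 control regions on the arm 62 of 332 (18.7%, 14.8 to 23.2) overlapped a Taz control region, against 46 of 82 (56.1%, 45.3 to 66.3) on the rest of the chromosome and 39.0% over the whole list. Of the Taz control regions 62 of 275 (22.5%, 18.0 to 27.8) overlapped a Yap1 control region, against 46 of 197 (23.4%, 18.0 to 29.7) on the rest and 30.1% over the whole list. On the arm the control lists, each paired with a different factor, thus had fewer regions in common than the positive lists did. Both sides again count the same overlaps, with 62 regions of each list on the arm and 46 on the rest. The Taz control list had 7.88 regions per Mb on the rest, against 5.33 on the arm, and the Yap1 control list 3.28 against 6.43. The part of density in these shares was not tested.

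**Figure D2:**
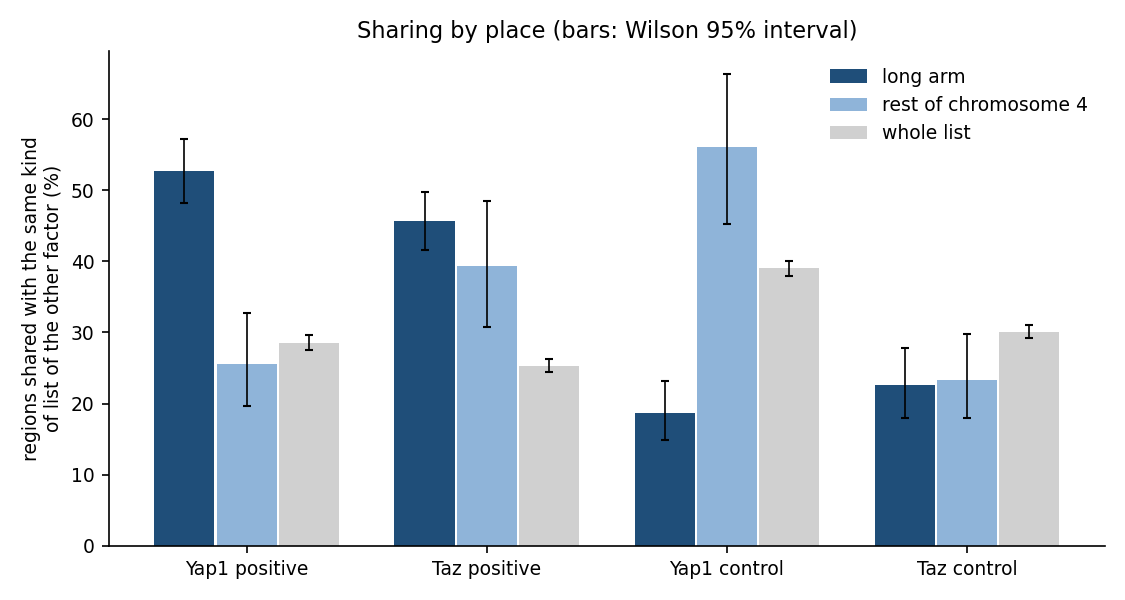
Percent of regions of each list that overlap a region of the same kind of list of the other factor, on the long arm (dark), on the rest of chromosome 4 (light) and over the whole list (grey); error bars are Wilson 95% intervals over regions. The long-arm bar is highest in the positive lists, at 52.8% for Yap1 and 45.7% for Taz, and lies below the whole-list bar in both control lists.

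The same was seen window by window after the first 5 Mb of the arm. Among the 248 windows of the assembled chromosomes that held at least 15 Yap1 positive regions, the 5 with the highest shared percentage all lay on the arm. These were the windows from 50 to 55 Mb (34 of 46 regions, 73.9%), 30 to 35 Mb (20 of 30, 66.7%), 60 to 65 Mb (30 of 45, 66.7%), 35 to 40 Mb (35 of 53, 66.0%) and 70 to 75 Mb (24 of 38, 63.2%). The other complete windows of the arm had 31.2% to 44.3%, and the median of the 248 windows was 25%. For the Yap1 control list, 6 of the 10 lowest of 258 windows lay on the arm, with 5% from 45 to 50 Mb (1 of 20 regions) as the lowest value of all. All 10 complete arm windows lay below the Yap1 control median of 41.4%.

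The shared percentage of Taz positive regions lay above its median window of 26.3% in 9 of the 10 complete arm windows, with 62.3% from 35 to 40 Mb and 62.0% from 60 to 65 Mb at the top. The exception was the first window of the arm, at 23.1%. None of the 22 Taz positive regions after 75 Mb overlapped a Yap1 positive region. Only 4 Yap1 positive regions were listed there, so few of the 22 could have been shared. Of the 9 arm windows with at least 15 Taz control regions, 7 lay below the Taz control median of 29.4%, and 4 were among the 10 lowest of 267. In the first 5 Mb of the arm, 31.2% of 16 Yap1 positive regions (14.2 to 55.6) and 23.1% of 26 Taz positive regions (11.0 to 42.1) were shared, beside 25.5% of 55 Yap1 control and 30.6% of 49 Taz control regions. Those intervals overlap, so no difference between positive and control sharing was detectable in that stretch.

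**Figure D3:**
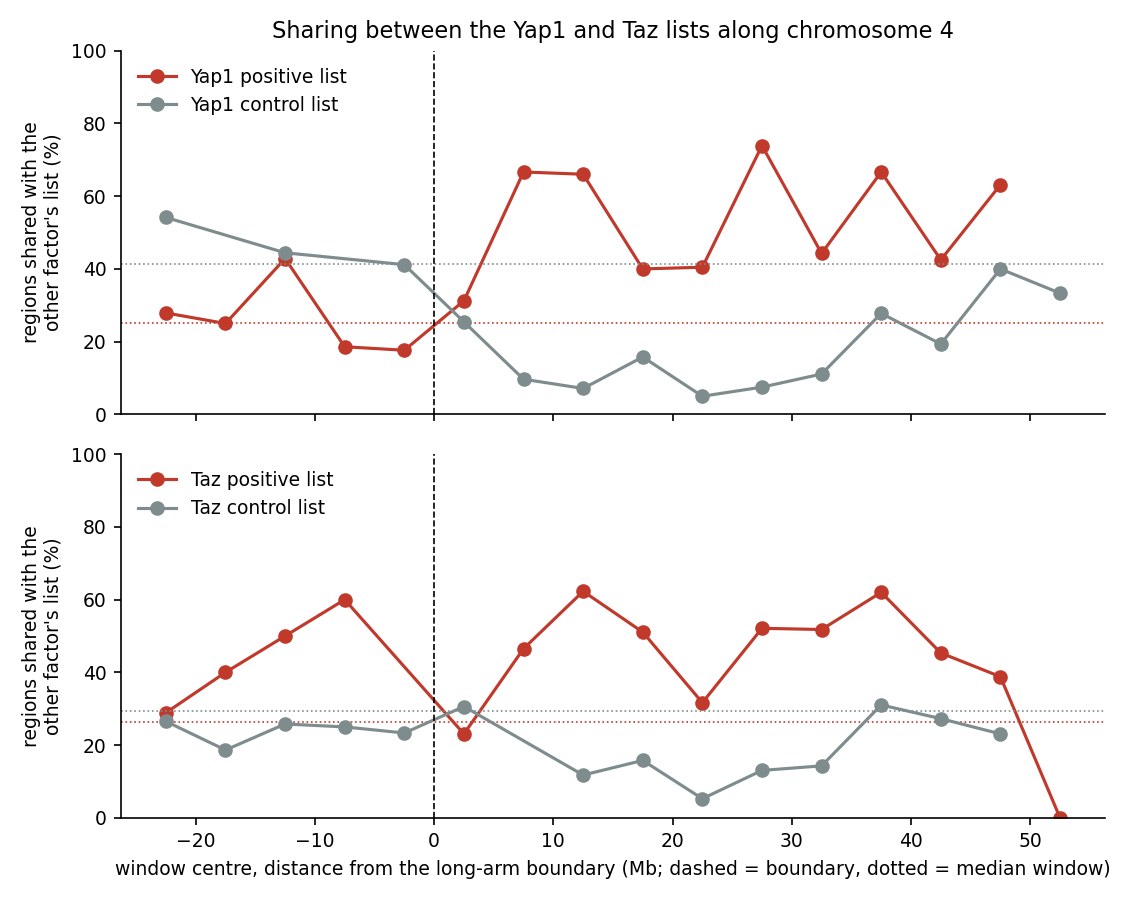
Percent of regions shared with the other factor's list of the same kind in 5 Mb windows, by distance of the window centre from the start of the long arm (dashed line); dotted lines are the median window of the assembled chromosomes, and windows with fewer than 15 regions are left out. For Yap1 the positive line (red) lies above the control line (grey) in every complete arm window, from 31.2% against 25.5% in the first to 63.2% against 40% in the last.

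Overlaps on the arm were measured in bases as well. The Yap1 and Taz positive regions had 329 kb in common, which was 46.6% of the bases covered by the Yap1 list and 46.4% of those covered by the Taz list. On the rest of chromosome 4 the common part was 24.3% of the Yap1 and 31.1% of the Taz bases. Over the whole lists it was 25.9% and 21.6%. The control lists had 59.1 kb in common on the arm, 12.0% of the Yap1 control and 17.4% of the Taz control bases. On the rest of the chromosome these shares were 42.5% and 19.9%, and over the whole lists 27.0% and 25.6%.

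The edges of shared regions often fell on the same base. Of 279 overlapping pairs of a Yap1 and a Taz positive region on the arm, 123 (44.1%) had the same start and the same end, and 87.1% had at least one edge in common. On the rest of the chromosome both edges were equal in 22 of 45 pairs (48.9%). Over the whole lists 41.3% of pairs had both edges equal and 87.9% at least one, so the arm values of the positive lists were near this background. In the control lists both edges were equal in 29 of 63 pairs on the arm (46.0%), against 41 of 46 on the rest of the chromosome (89.1%) and 71.5% over the whole lists. Control regions that overlapped on the arm thus matched less exactly than those elsewhere on the chromosome, while the positive pairs did so about equally often in both places.

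On the arm, sharing was more frequent in the classes of higher score in every list but the Yap1 control list. The score is a whole number per region, made by the authors, whose quantity was not stated, and it was used only to rank regions within a list. In 4 equal score classes of the Yap1 positive regions of the arm, from lowest to highest, 30.5%, 37.6%, 57.3% and 85.6% were shared. In the highest class this was 101 of 118 regions (78.1 to 90.8). On the rest of the chromosome the classes had 21.4%, 21.4%, 16.7% and 42.9%, the last being 18 of 42 regions (29.1 to 57.8). For Taz positive regions of the arm the classes had 29.0%, 41.0%, 46.5% and 66.2%, against 28.6% in the lowest class and 42.9% in each of the other classes on the rest of the chromosome. The Taz control classes on the arm rose too, at 14.5%, 15.9%, 27.9% and 31.9%. The intervals of their lowest and highest class overlapped (8.07 to 24.7 and 22.1 to 43.6). The Yap1 control classes on the arm stayed between 15.7% and 21.7%. Score classes were not computed over the whole lists, so whether the rise with score was particular to the arm was not tested.

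**Figure D4:**
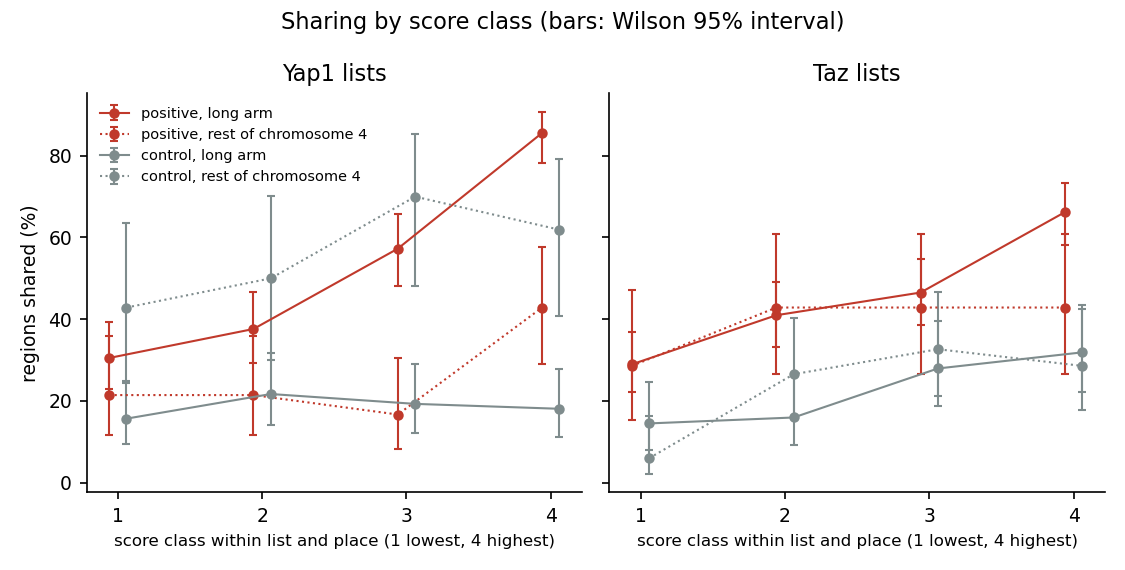
Percent of regions shared with the other factor's list of the same kind, by score class within each list and place, for the long arm (solid) and the rest of chromosome 4 (dotted) in positive (red) and control (grey) lists; error bars are Wilson 95% intervals over regions. The highest Yap1 positive class on the arm stands at 85.6%, against 42.9% for the highest class on the rest of the chromosome.

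Shared regions of the arm had a median score of 113.5 in the Yap1 positive list, against 73 for regions without a Taz counterpart. In the Taz positive list the medians were 117.5 for shared and 92 for unshared regions. Shared regions were also the longer ones, at a median of 1149 bp against 1053 bp for Yap1 and 1170 bp against 856.5 bp for Taz. This was not particular to the arm. On the rest of chromosome 4 the medians were 1261 bp against 849 bp for Yap1 and 1295.5 bp against 1148 bp for Taz. Shared Yap1 control regions of the arm went the other way in length, at 995 bp against 1465 bp for unshared ones, with a median score of 80 in each. They were also the shorter ones on the rest of the chromosome, at 662.5 bp against 1055 bp. Shared Taz control regions of the arm went the same way as the positive ones, at 967 bp against 849 bp and a median score of 95.5 against 82. On the rest of the chromosome their lengths were 662.5 bp against 679 bp.

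Taken as a whole, arm regions were longer than those on the rest of chromosome 4 in every list but that of Taz positive regions. The median lengths on the arm, with those on the rest of the chromosome after them, were 1092 bp against 975 bp for Yap1 positive and 987 bp against 1260.5 bp for Taz positive regions. In the control lists they were 1281.5 bp against 787.5 bp for Yap1 and 902 bp against 672 bp for Taz. The Yap1 control list, with quartiles of 722 and 1985 bp, therefore had the longest median of the 4 lists on the arm. Over the whole lists the medians were 957 bp (Yap1 positive), 982 bp (Taz positive), 907.5 bp (Yap1 control) and 804 bp (Taz control). The Taz positive arm median was thus near that of its whole list, while its median on the rest of chromosome 4 was higher. Regions under 300 bp numbered 11 of 470 (Yap1 positive), 3 of 332 (Yap1 control), 29 of 578 (Taz positive) and 3 of 275 (Taz control). As shares these were 2.34%, 0.904%, 5.02% and 1.09% on the arm, against 5.27%, 0.433%, 7.53% and 0.871% over the whole lists in the same order. The longest region was 12683 bp in the Yap1 positive, 5922 bp in the Yap1 control, 5862 bp in the Taz positive and 15810 bp in the Taz control list. The region of 15810 bp was the longest of the whole Taz control list.

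The median score of positive regions on the arm was lower than elsewhere for Yap1 and close to the rest for Taz. The median score of Yap1 positive regions was 81.5 on the arm, against 105.5 on the rest of the chromosome and 96 over the whole list. For Taz positive regions the medians were 103 on the arm, 102 on the rest and 106 over the whole list. The control medians were 80 on the arm and 70 on the rest for Yap1, and 84 and 95 for Taz. The lower quartile of the Yap1 positive scores on the arm was 67, where 57 was the lowest value listed. Their upper quartile was 130, against 120.75 on the rest and 126 over the whole list. The upper part of the Yap1 positive scores was thus not lower on the arm.

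The positive regions of the arm included many runs of close neighbours. A cluster was a run of at least 3 regions of 1 list with gaps of at most 10 kb. On the arm 127 of 470 Yap1 positive regions (27.0%, 23.2 to 31.2) lay in 29 clusters, against 35 of 168 (20.8%, 15.4 to 27.6) on the rest of the chromosome and a background of 14.2% over the whole list. Of the Taz positive regions 165 of 578 (28.5%, 25.0 to 32.4) lay in 43 clusters, against 19 of 112 (17.0%, 11.1 to 25.0) on the rest and 21.4% over the whole list. In the Yap1 control list 45 of 332 arm regions lay in clusters (13.6%, 10.3 to 17.7; 11.0% over the whole list). In the Taz control list this held for 33 of 275 (12.0%, 8.67 to 16.4; 5.58% over the whole list). With neighbours at most 4 bp apart joined, 15.3% of Yap1 positive regions on the arm lay in clusters (12.2 to 19.0), against 16.1% on the rest of the chromosome (11.3 to 22.6) and 11.1% over the whole list. For Taz positive regions the joined values were 21.2% (17.9 to 24.8), 14.2% (8.77 to 22.0) and 18.3%. In the Yap1 control list the joined values were 11.1% on the arm, 3.66% on the rest and 8.83% over the whole list. In the Taz control list they were 12.2%, 9.74% and 4.95%, in the same order. After joining, the arm intervals of the positive and control list overlapped for Yap1 and did not meet for Taz. The joined Taz positive share was above the Taz control share over the whole lists too, so that gap was not particular to the arm.

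Clusters of the factors met each other on the arm. Of the 29 Yap1 clusters 18 overlapped a Taz cluster, and of the 43 Taz clusters 18 overlapped a Yap1 cluster. On the rest of chromosome 4 none of 10 Yap1 and 5 Taz clusters did, and on the arm none of the 14 Yap1 control and 8 Taz control clusters did. Over the whole lists 70 of 281 Yap1 and 69 of 439 Taz positive clusters met a cluster of the other factor, as did 14 of 284 Yap1 control and 14 of 189 Taz control clusters. Within clusters 112 of 165 Taz positive regions of the arm were shared (67.9%), against 152 of 413 outside clusters (36.8%). For Yap1 these values were 77 of 127 (60.6%) and 171 of 343 (49.9%). On the rest of the chromosome few regions lay in clusters. For Taz, 5 of 19 regions in clusters (26.3%) and 39 of 93 outside (41.9%) were shared there. For Yap1 these values were 8 of 35 (22.9%) and 35 of 133 (26.3%), so no order is drawn from the rest. Over the whole lists the values were 26.2% and 25.1% for Taz and 39.9% and 26.7% for Yap1.

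The clusters with most regions fell into 2 kinds. The Yap1 clusters at 42069292 to 42108165, with 12 regions, and at 59552731 to 59589161, with 10, had no Taz positive region. They had no control region either, which is not read as a result, because positive and control regions rarely overlapped anywhere in the lists. Their scores were low throughout, at 58 to 73 and 60 to 83, and they covered 81.7% and 98.5% of their spans of 38.9 and 36.4 kb. The third Yap1 cluster, at 59446805 to 59458040, lay before the second of these and was unlike it. It had 7 regions with scores from 149 to 427, and all 7 overlapped Taz positive regions. The Taz list also had 7 regions there, over exactly the same span, with scores from 73 to 177.

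The leading Taz clusters were all of the shared kind. The cluster at 36768503 to 36801689 had 8 Taz regions, of which 7 overlapped 6 Yap1 regions, and Yap1 and Taz had the same starts and ends at 5 of them. The cluster at 66772808 to 66803343 had 8 Taz regions, of which 6 overlapped Yap1 regions. Its highest Yap1 score was 402, at 66778055 to 66781705, where the Taz list had a region with the same edges and a score of 253. The cluster at 53601912 to 53621114 had 7 Taz regions, all shared, over 4 Yap1 regions. No control region lay in any of these 3 Taz clusters. Positive and control regions of the same factor never overlapped anywhere in the lists. Across factors 0.596% of Yap1 positive and 0.627% of Taz positive regions did so over the whole lists. The lack of control regions in these clusters is therefore not read as a result.

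The largest control cluster held regions of very unequal length, from 344 to 15810 bp. At 53999553 to 54039230 the Taz control list had 9 regions over 39.7 kb, 78.8% of it covered, with scores from 67 to 125. The Yap1 control list had no region there. Neither positive list had one either, which is again not read as a result. Gaps of 510 bp occurred 2 times in it, and 3 successive gaps were 356, 355 and 356 bp.

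**Figure D5:**
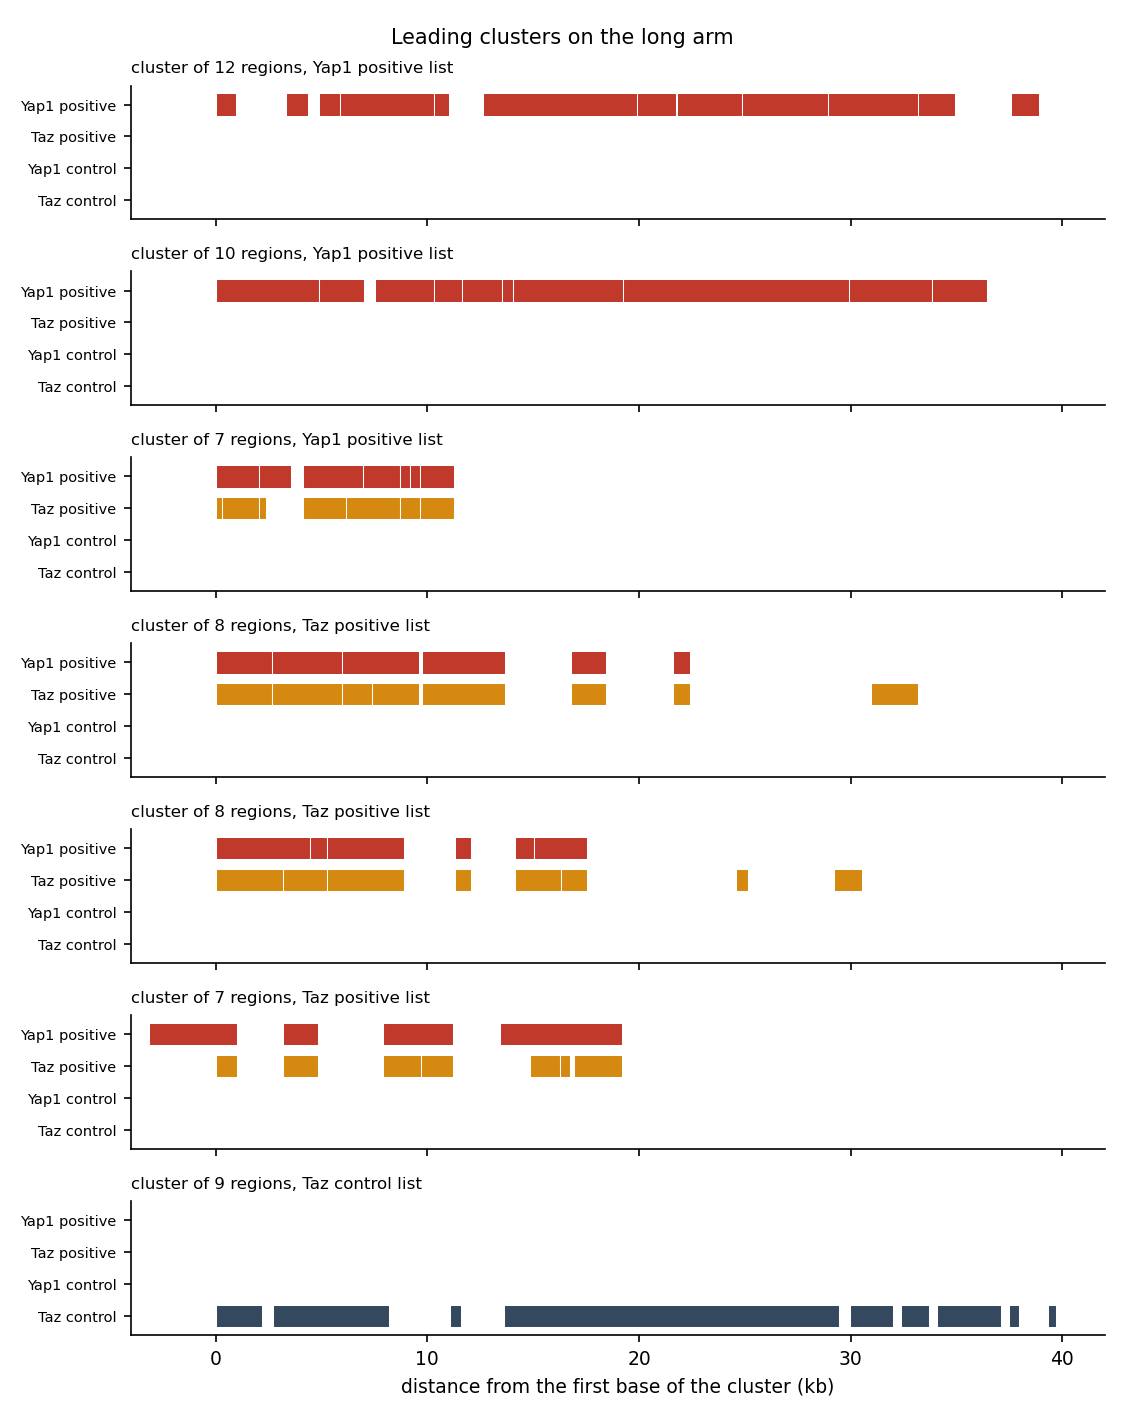
Regions of the 4 lists in the leading clusters of the long arm, each row 1 list and each bar 1 region to scale, by distance in kb from the first base of the cluster. The Yap1 clusters of 12 and 10 regions and the Taz control cluster of 9 have bars in 1 row only, while the cluster of 7 Yap1 regions and the 3 Taz clusters have bars in both positive rows and none in the control rows. Positive and control regions rarely overlapped anywhere in the lists, so empty control rows are not read as a result.

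Regions that followed each other closely did so at a fixed step. The smallest gap between neighbours on the arm was 4 bp, the length of a GATC site, in each of the 4 lists, and no other gap under 10 bp occurred there. Gaps of exactly 4 bp made up 8.30% of the neighbour steps of Yap1 positive regions on the arm, against 4.19% on the rest of the chromosome and 3.75% over the whole list. For Taz positive regions the values were 7.44%, 5.41% and 4.20%, in the same order. The control lists had 2.41% (Yap1) and 1.45% (Taz) on the arm, against 1.61% and 0.820% over the whole lists, so the arm value was the higher one in all 4 lists. In the Yap1 cluster of 12 regions 5 of 11 steps were of this size, and in that of 10 regions 6 of 9.

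Some regions of 1 list overlapped each other, and most such cases lay on the arm. The Yap1 positive list had 6 overlapping neighbours in all, 5 of them on the arm, and the Taz positive list had 1, on the arm. The Yap1 control list had 1, on chromosome 14, and the Taz control list none. The lengths of the overlaps recurred. In the Yap1 cluster at 42069292 they were 569 bp (42098236 to 42098804) and then 455 bp (42102452 to 42102906). In the Yap1 cluster at 59552731 they were 455 bp (59571985 to 59572439) and then 569 bp (59582641 to 59583209), the same lengths in the opposite order. The only Yap1 case off the arm, on the unplaced sequence Un_KN149688v1 (65324 to 65778), was again 455 bp long. The remaining Yap1 overlap on the arm was 575 bp long, at 55732081, and the Taz overlap 520 bp, at 59447107.

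Region lengths recurred as well. The most frequent length on the arm in the Taz control list was 417 bp, found 12 times between 31275511 and 67293323 with scores from 71 to 154, none of them in a cluster. The whole Taz control list had 26 regions of that length, and the rest of chromosome 4 had none. In the Taz positive list 610 bp was found 8 times on the arm and 87 times over the whole list (1.38% and 1.01% of the regions). In the Yap1 control list 809 bp was found 5 times on the arm and 92 times over the whole list. The Taz control list had 4 regions of 809 bp on the arm. In the Yap1 positive list the most frequent length on the arm, 601 bp, was found 4 times, with 3 regions of that length in the Taz positive list of the arm.

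Positive regions of high score are described next by the rule stated for naming them. The highest Yap1 score on the arm was 665, at 25083918 to 25088590, close to the boundary, ranked 22 in the whole Yap1 list. A Taz region with a score of 209 ended on the same base. The next were at 33091542 to 33095750 (score 437), 59446805 to 59448851 (427), 46692649 to 46696404 (412) and 59455501 to 59456001 (412). All 5 overlapped Taz regions, beside 85.6% in the highest Yap1 score class of the arm. At the places after the first, the highest Taz scores were 190, 165, 243 and 100 in the same order.

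Of the 5 highest Taz scores on the arm, 3 had no Yap1 counterpart. This also held for 314 of 578 Taz positive regions of the arm and 6430 of 8608 over the whole list. In the highest Taz score class of the arm 66.2% were shared. With 5 regions no difference from these shares is drawn. The region at 36077131 to 36077987, with a score of 778, was the third highest of the whole Taz list. The others, at 76351393 to 76355900 (score 535) and 76394859 to 76397447 (score 499), lay near the end of the chromosome. Only 4 Yap1 positive regions were listed after 75 Mb. The regions at 46700525 to 46701592 (score 441) and 56719887 to 56720375 (score 393) were listed with the same edges for Yap1, at scores of 324 and 68. The first of these stands close to the Yap1 region at 46692649, which is among the 5 highest Yap1 scores.

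The longest shared Yap1 region, 9946 bp from 37812426 to 37822371 (score 157), overlapped 5 Taz regions with scores from 238 to 332. The region of 5801 bp from 63552112 to 63557912 had the same edges in both lists, with a score of 125 for Yap1 and 233 for Taz. The longest Yap1 regions without a Taz counterpart all had low scores, at 58 to 74. They were 12683 bp (65279693 to 65292375), 11225 bp (59571985 to 59583209), 7304 bp (42081906 to 42089209), 5675 bp (59566765 to 59572439) and 5015 bp (59276192 to 59281206). Of these, 3 belonged to the Yap1 clusters of 12 and 10 regions. The longest Taz regions without a Yap1 counterpart were shorter, at 3498 to 4508 bp, with scores from 68 to 535. The longest of them was the region at 76351393, and the others started at 34543359, 41380162, 32884329 and 31140229.

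The highest control scores of the arm lay near its start for the Taz control list and were spread for the Yap1 control list. In the Taz control list they were 307 (27189591 to 27192099), 270 (26189102 to 26190310) and 199 (28772496 to 28776364), each overlapping a Yap1 control region with a score of 79, 117 or 112. The first of these was the sixth highest score of the whole Taz control list. In the Yap1 control list they were 195 (65953576 to 65954315), 190 (52163023 to 52164582) and 187 (40278326 to 40279184), of which the last overlapped a Taz control region. Over all arm regions 22.5% of the Taz control list and 18.7% of the Yap1 control list were shared.

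Overlaps between a positive region and a control region of the other factor were rare on the arm and over the whole lists. None of 470 Yap1 positive regions overlapped a Taz control region (Wilson interval up to 0.811%), beside 0.596% over the whole list. Of 578 Taz positive regions, 1 overlapped a Yap1 control region (0.173%, 0.0305 to 0.973), beside 0.627% over the whole list. At this number of regions neither value can be told from the whole list. Both factors were paired with the same Dam-GFP sample, so these low shares are not independent of that control. The single case was a Taz positive region at 75579473 to 75579919 (score 174), which started on the same base as a Yap1 control region that ran to 75581320 (score 61). A positive region and a control region of the same factor never overlapped, on the arm or anywhere else in the 4 lists. Lists that are opposite sides of a comparison would be apart by construction, so this is not read as a result about the arm.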

How the data were processed

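The 4 zebrafish region lists came from 3 samples, 1 per group. The authors deposited BED lists with a score per region. The submitters' processing notes name the tools bedtools, Bowtie2, cutadapt and SAMtools and the build GRCz10 (danRer10). The region caller, its threshold, the quantity behind the score and whether replicates were pooled are not given in the sources used here. Read depth was unknown.

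Positions were converted to 1-based. Regions were counted, overlapped (at least 1 bp), clustered (gaps of at most 10 kb, at least 3 regions) and binned in 5 Mb windows with Python 3.11.15, pandas 2.3.3 and scipy 1.17.1. Shared percentages per window needed at least 15 regions. Shares carry Wilson 95% intervals, and odds ratios have intervals computed on the log scale. The code that counts overlaps and clusters was checked on simulated lists with planted overlaps, a check of the counting only. The members and comparisons were chosen with earlier results of these data known. Named regions were the 5 highest scores per positive list and 3 per control list, the 5 longest shared and 5 longest unshared regions per positive list, the 3 largest clusters per positive list, and any region positive for 1 factor and control for the other. The largest Taz control cluster, recurring lengths, gaps of 4 bp, overlaps within a list and the other assembled chromosomes as reference were added after the values were seen.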

Additional observations from a re-analysis of the deposited data

Results flagged for a closer look

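The odds of the long arm over the rest of chromosome 4, positive over control, were below 1 for Yap1 (0.691) and above 1 for Taz (3.70). In this contrast the factors thus moved in opposite directions, and the difference was not tested. The Yap1 direction depended on the setting. It reversed to 1.22 (0.934 to 1.59) with the boundary moved further into the arm. Against all other assembled chromosomes it reversed to 1.68 (1.45 to 1.94). The other alternatives tried left the Yap1 value below 1, but with close regions merged its interval included 1 (0.801, 0.575 to 1.12). The median length on the long arm minus that on the rest of the chromosome was 117 bp for Yap1 positive and -273.5 bp for Taz positive regions, again in opposite directions and not tested. The Taz positive median of 987 bp on the arm was, however, near the 982 bp of its whole list.

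The shared percentage on the long arm minus that on the rest of the chromosome was 27.2 percentage points in the Yap1 positive list and -37.4 in the Yap1 control list. The same difference was 6.39 percentage points in the Taz positive list and -0.805 in the Taz control list, where the intervals of arm and rest overlapped in each list. These differences between positive and control lists were not tested either. The Yap1 side and the Taz side count the same overlaps over different numbers of regions. Their differences are therefore not read as differences between the factors.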

How the results depend on the processing

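Of 62 values recomputed under an alternative, 43 stayed within the 95% counting interval of the value reported, 17 moved outside it and 2 reversed. Both reversals were of the Yap1 odds ratio of the long arm, which was 1.22 with the boundary at 30 Mb and 1.68 with all other assembled chromosomes as reference. Keeping regions at or above the median score of each list gave odds ratios of 0.355 (Yap1) and 4.97 (Taz). A reciprocal overlap of at least 50% lowered the shared percentage to 41.9% (Yap1 positive), 34.1% (Taz positive), 14.2% (Yap1 control) and 17.1% (Taz control). The Yap1 control percentage was 26.4% with regions merged within 10 kb and 14.3% at or above the median score. The percentage of positive regions in clusters depended on the definition. For Yap1 and then Taz it was 20.4% and 15.9% with gaps of at most 5 kb, 56.6% and 56.9% with gaps of at most 50 kb, 45.7% and 49.7% with at least 2 regions, and 15.3% and 21.2% with neighbours at most 4 bp apart joined. Regions at or above the median score gave 19.8% for Yap1. Beyond what these settings change by construction, the cause was not tested. Median lengths and scores stayed within their intervals under both alternatives tried. No paired analysis was possible because each group was 1 sample. The number of regions limits precision where few are listed, as with the 4 Yap1 positive regions after 75 Mb.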
